A study of Arabidopsis thaliana with 21 samples.

Results

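Roots of seedlings preserved on a C-9 aircraft once its first parabola was over were compared with roots preserved in level flight shortly before it. A C-9 flies parabolas that alternate increased gravity with near weightlessness, and the parabola 1 end seedlings had passed through 1 such cycle. The comparison uses the 6 arrays whose titles name these stages, 3 for parabola 1 end and 3 for level flight, of 21 arrays in the series. The features described are the 16722 probe sets (of 38408 on the array table) that the platform annotation pairs with exactly 1 gene.

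All plants were wild-type Arabidopsis thaliana of the Wassilewskija (WS) ecotype, 12 days old, grown in 24 h light at 19 °C, and moved to a tube the morning before the flight. The parabola 1 end group was fixed with RNAlater, an RNA preservative, when the first parabola had ended. The level flight group was fixed the same way 1 min before that parabola began. Whole roots were dissected after fixation. Of 5 further groups with 3 arrays each, 3 cover parabola 1 (its start, and its midpoint in tubes A and B) and 2 were taken when parabola 3 and parabola 10 had ended. The labels state that all replicates of a condition came from roots in 1 tube. All p-values below thus rest on differences among roots that shared a tube, and stage and tube cannot be told apart. In whole roots, fewer cells of a type and less RNA per cell cannot be told apart either.

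Plant cells that run short of sugar activate the kinase SnRK1 and bZIP transcription factors. These switch on genes that break down amino acids, branched-chain ones among them, and recycle cell contents through autophagy, so that carbon and nitrogen can be reused.

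Values are log2 expression from RMA, in which 1 unit is a factor of 2, and differences are parabola 1 end minus level flight. Fell and rose stand for a difference between these tubes that passed limma's test at an adjusted p of 0.05; no root was measured at more than 1 time. In all, 200 of 17481 probe sets with an annotated gene passed (1.14%), 151 lower (0.864%) and 49 higher (0.28%) at parabola 1 end. Of the 151, 35 were lower by at least 2-fold, and none of the 49 was higher by as much. The lower group had a median level flight value of 6.60 and the higher group one of 3.85, so that the rises were mostly read from dimmer probe sets. The median difference over all 17481 was 0.03. For all 200 the 3 arrays of a group lay outside the range of the other 3, which also held for 16.4% of all probe sets tested (7.27% with parabola 1 end lower).

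**Figure D1:**
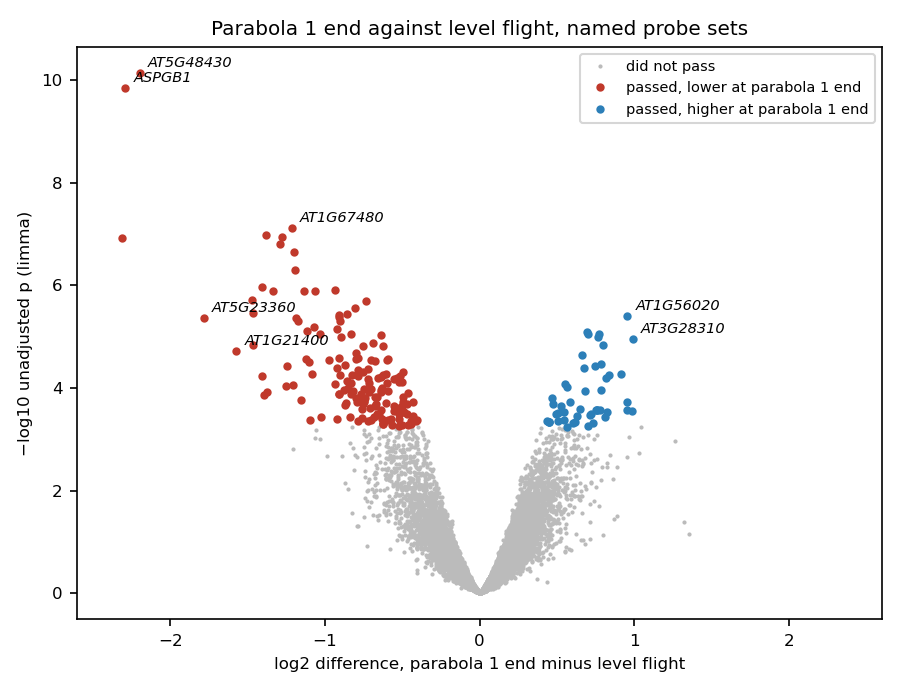
Each point is 1 of 17481 probe sets with an annotated gene, placed by its log2 difference (parabola 1 end minus level flight, x axis) and by −log10 of limma's unadjusted p (y axis). The 151 probe sets that passed and were lower (red) reach down to -2.31, while the 49 that passed and were higher (blue) stay below 1.

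The largest fall of a single gene was that of ASPGB1 (AT3G16150), an asparaginase that splits asparagine into aspartate and ammonia. Its values were 5.63, 5.44 and 5.25 at parabola 1 end, against 7.54, 7.83 and 7.83 in level flight. The groups lay far apart, with a difference of -2.29 (SE 0.20, 4.9-fold, limma adjusted p = 1.24e-06). It was the only 1 of 4 measured genes of the nitrogen and asparagine list to pass, beside 0.864% of all probe sets called lower. The others, AlaAT1, an alanine aminotransferase (-0.07), AT3G59610 (0.12) and the second asparaginase gene ASPGA1 (0.27), did not, and the list's median was 0.02. As ASPGB1 was already named for its fall, the list's count is no separate result. AT5G48430, an aspartyl protease family gene, had 4.24, 3.94 and 3.95 at parabola 1 end, against 6.20, 6.26 and 6.26 in level flight. Its difference was -2.20 (SE 0.18, limma adjusted p = 1.24e-06), and the level flight arrays differed from each other by less than 0.1. A probe set with 2 annotated genes, which is therefore not named, had a difference of -2.31 (limma adjusted p = 0.000346). PPDK, which encodes pyruvate orthophosphate dikinase, an enzyme that links pyruvate and phosphoenolpyruvate, had 4.02, 3.73 and 3.11 at parabola 1 end, against 4.89, 5.10 and 4.99 in level flight. It fell by 1.37 on the log2 scale (SE 0.29, limma adjusted p = 0.02).

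Genes for the breakdown of branched-chain amino acids (leucine, isoleucine and valine) formed a list of 25 loci, of which 9 were measured. Of these, 4 fell and none rose, 8 had values below 0, and the median was -0.28, beside 0.03 for all probe sets and 0.864% of them called lower. AT1G21400 encodes an E1 alpha subunit of the enzyme complex that commits branched-chain keto acids to breakdown. It had 5.06, 4.61 and 4.15 at parabola 1 end, against 6.01, 6.07 and 6.46 in level flight. Every parabola 1 end array was lower, with a difference of -1.57 (SE 0.29, limma adjusted p = 0.00763). MCCB, a subunit of the methylcrotonyl-CoA carboxylase of leucine breakdown, had 7.87, 8.06 and 7.72 at parabola 1 end, against 8.60, 8.78 and 8.92 in level flight.

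MCCB fell by 0.88 on the log2 scale (SE 0.18, limma adjusted p = 0.0194). ETFQO, which passes electrons from these reactions to ubiquinone, had 6.44, 6.41 and 6.20 at parabola 1 end, against 6.90, 7.10 and 7.32 in level flight, and fell by 0.76 (limma adjusted p = 0.0272). ALDH6B2, the methylmalonate semialdehyde dehydrogenase of valine breakdown, had 5.58, 5.83 and 5.59 at parabola 1 end, against 6.33, 6.41 and 6.47 in level flight. It had the smallest error of the 4, with a difference of -0.74 (SE 0.11, limma adjusted p = 0.0022). The other measured members did not pass: D2HGDH, a 2-hydroxyglutarate dehydrogenase, had a difference of -0.28, ETFALPHA, an electron carrier subunit, -0.06, the hydroxyisobutyrate dehydrogenase gene AT4G20930 -0.05, the hydroxymethylglutaryl-CoA lyase gene AT2G26800 -0.02, and the enoyl-CoA hydratase family gene AT4G16800 0.40. The count of 4 was 1 without level flight replicate 3, 2 without level flight replicate 2 or parabola 1 end replicate 3, and 3 or 4 without each of the others. It was 0 with the tube as a random block.

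Sugar starvation and SnRK1 genes formed a list of 38 loci, of which 8 were measured. Of these 4 fell and none rose, beside 0.864% of all probe sets called lower, with a median of -0.73, beside 0.03 for all probe sets. AT1G67480, an F-box gene with kelch repeats, had 7.67, 7.66 and 7.60 at parabola 1 end, against 8.69, 8.85 and 9.02 in level flight. The 3 parabola 1 end arrays were almost equal, and the difference was -1.21 (SE 0.15, limma adjusted p = 0.000346). The list was drawn up with earlier results of these data known, so its direction is no independent evidence.

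BZIP53, a transcription factor that pairs with other bZIP proteins under low energy, had 7.44, 7.19 and 7.21 at parabola 1 end, against 8.03, 8.15 and 8.07 in level flight, and fell by 0.80 (SE 0.15, limma adjusted p = 0.00816). The proline dehydrogenase gene AT5G38710, which starts proline breakdown, had 5.55, 5.33 and 5.91 at parabola 1 end, against 6.33, 6.24 and 6.80 in level flight. Its difference was -0.86 (limma adjusted p = 0.0153), and its arrays were the most scattered of the 4 in both groups. ATG8E, one of the small proteins that are attached to the membrane of the forming autophagosome, had 5.61, 5.84 and 5.79 at parabola 1 end, against 6.42, 6.72 and 6.79 in level flight. It fell by 0.90 (SE 0.16, limma adjusted p = 0.00485). AT3G15630 had a difference of -0.65 (limma adjusted p = 0.0967), AT1G18460 of -0.28, AKINBETA1, a subunit of SnRK1 itself, of -0.18, and AT5G53420 of 0.09. With the tube as a random block 1 of the 4 passed, and 3 passed without parabola 1 end replicate 2 or level flight replicate 3.

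ATG8E also stands among 8 measured autophagy genes with an ATG symbol, 7 of them ATG8 genes. All 8 had values below 0, with a median of -0.33, and 2 passed, while 56.9% of all probe sets had values above 0 and 0.864% were called lower. The second was ATG8H, with 7.15, 7.32 and 7.51 at parabola 1 end, against 7.85, 7.91 and 8.25 in level flight (difference -0.68, limma adjusted p = 0.0288). ATG8B (-0.48), ATG8G (-0.40), ATG8C (-0.25), ATG8F (-0.09) and ATG8D (-0.06), and ATG3 (-0.16), an enzyme that attaches ATG8 proteins to lipid, did not pass. Near-identical ATG8 copies may share probes, which was not tested. The count of 2 was 1 without parabola 1 end replicate 1 or 2 or level flight replicate 2 or 3, and 0 with the tube as a random block.

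GRAM domain genes related to GEM, a regulator of root epidermal patterning, are 9 loci in the list used, of which 7 were measured. AT5G23360 had 4.71, 5.04 and 5.21 at parabola 1 end, against 6.60, 6.70 and 6.997 in level flight, a difference of -1.78 (SE 0.29, limma adjusted p = 0.00321). Its direct neighbour AT5G23350 had 5.66, 5.73 and 5.89 at parabola 1 end, against 6.80, 7.17 and 7.71 in level flight (-1.47, limma adjusted p = 0.00623). AT5G08350, elsewhere on chromosome 5, had 6.05, 5.74 and 5.72 at parabola 1 end, against 7.13, 7.33 and 7.46 in level flight (-1.47, limma adjusted p = 0.0022).

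These 3 fell and none rose, beside 0.864% of all probe sets called lower. AT5G23370 had a difference of -0.56 (limma adjusted p = 0.102) and AT4G01600 of -0.36, while GEM itself (-0.05) and AT5G13200 (-0.03) lay within 0.1 of level flight. The family was listed with its falls known, and shared probes between its members were not tested. With the tube as a random block none of the 7 passed, and without level flight replicate 3 the count was 2.

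**Figure D2:**
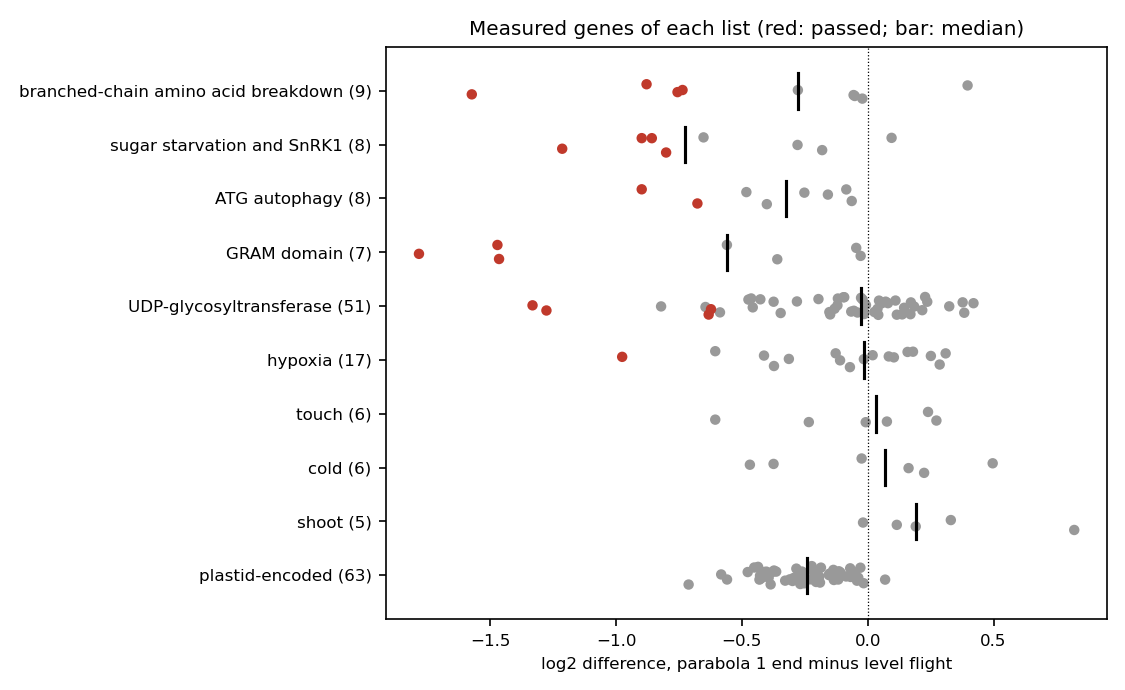
Each point is the log2 difference of 1 measured gene (parabola 1 end minus level flight, x axis) in the list named on the y axis, with the number measured in brackets; red points passed limma's test and the bar is the list's median. Red points stand only on the lower side of 0, and the touch, cold, shoot and plastid-encoded lists have none.

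Gene families with a shared symbol were counted next. Of 51 measured UDP-glycosyltransferase genes, which attach sugars to small molecules, 4 fell and none rose, beside 0.864% of all probe sets called lower, and 22 had values above 0, with a family median of -0.03. None of 28 cytochrome P450, 32 serine carboxypeptidase-like and 64 low-molecular-weight cysteine-rich genes passed, beside 1.14% of all probe sets. At that share, 0 calls in families of these sizes sets none of them apart. The 3 families were also dim, with level flight array medians from 1.70 (cysteine-rich) to 2.80 (serine carboxypeptidase-like). UGT76B1, which glucosylates isoleucic and salicylic acid, had 7.17, 6.97 and 7.09 at parabola 1 end, against 8.27, 8.36 and 8.42 in level flight (difference -1.28, SE 0.16, limma adjusted p = 0.000346). UGT73D1 had 4.91, 5.01 and 5.13 at parabola 1 end, against 6.33, 6.31 and 6.40 in level flight (-1.33, limma adjusted p = 0.00158). UGT73B1 (-0.63) and its neighbour UGT73B2 (-0.62) differed less. The family count was 2 or 3 without each array in turn, and 1, UGT76B1, with the tube as a random block.

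Of 7 measured WRKY transcription factor genes, WRKY29 and WRKY22, both known from signalling triggered by bacterial flagellin, fell, beside 0.864% of all probe sets, and the family median was -0.22. WRKY29 had 6.90, 6.94 and 6.73 at parabola 1 end, against 7.65, 7.9997 and 8.14 in level flight (difference -1.07, limma adjusted p = 0.00418). WRKY22 had 5.01, 4.48 and 4.52 at parabola 1 end, against 5.57, 5.36 and 5.68 in level flight (-0.87, limma adjusted p = 0.0278). The count was 1 without parabola 1 end replicate 2 or 3 or level flight replicate 1 or 3, and 0 with the tube as a random block. PUB22, a ubiquitin ligase that dampens immune signalling, fell by 0.91 (SE 0.15, limma adjusted p = 0.00321), as 1 of 10 measured PUB genes, beside 0.864% of all probe sets. It did not pass with the tube as a random block (limma adjusted p = 0.0816).

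Further falls named by the rule were those of AT2G44340, a VQ motif gene (-1.46), AT3G53600, a zinc finger gene (-1.39), AT2G38600, of the acid phosphatase family (-1.40), AT1G56660 (-1.40), AT3G29240 (-1.38), AT5G12340 (-1.29), AT1G52200, of the PLAC8 family (-1.20), and AT2G20670 (-1.19). Of these AT3G29240 had close arrays in both groups, with 5.31, 5.42 and 5.50 at parabola 1 end, against 6.69, 6.75 and 6.93 in level flight (SE 0.17, limma adjusted p = 0.000346). Single members of other families fell too, beside 0.864% of all probe sets called lower. BGLU45, a glucosidase of lignin precursors (-1.10), was 1 of 22 beta-glucosidase genes, with a family median of 0.07. TRM24 (-0.92) was 1 of 15 TON1 recruiting motif genes (median 0.15). GSTU22 (-0.75) was 1 of 14 glutathione transferase genes (median -0.07). The 3 genes passed in 11, 5 and 7 of 14 settings. The hypoxia list had 1 fall among 17 measured genes, AT5G66985 (-0.98), beside 0.864% of all probe sets, and a median of -0.02. The count was 0 without level flight replicate 3 and 0 with the tube as a random block.

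The largest rises were smaller than the falls. AT3G28310 had 6.87, 7.39 and 7.57 at parabola 1 end, against 6.18, 6.39 and 6.28 in level flight (difference 0.99, SE 0.17, limma adjusted p = 0.00518). Its direct neighbour AT3G28320 rose as well, by 0.77, a gene named after its values were seen. AT1G56020 had 5.01, 5.13 and 4.87 at parabola 1 end, against 4.04, 4.20 and 3.91 in level flight, which left a clear gap between the groups (0.95, SE 0.15, limma adjusted p = 0.00321).

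PDF2.5, a plant defensin gene, had 6.60, 6.74 and 6.33 at parabola 1 end, against 5.77, 5.90 and 5.14 in level flight. It rose by 0.95 (limma adjusted p = 0.0263), as the 1 gene that passed among 10 defensin genes. Over all probe sets 0.28% were called higher. The family median was 0.09, and PDF2.5 passed in 8 of 14 settings. AT1G21326, a VQ motif gene, rose by 0.91, AT5G47060, a zinc finger gene of the FLZ family, by 0.84, AT5G38030, a MATE efflux gene, by 0.82, the terpene synthase gene AT1G33750 by 0.81, AT3G62570 by 0.80, AT3G28530 by 0.79 and AT2G37440 by 0.78. The lipase family gene AT5G45950 (2.93 ± 0.51 at parabola 1 end, 1.94 ± 0.39 in level flight) and AT1G62190 (3.28 ± 0.38 and 2.33 ± 0.18; SD, n = 3 each) rose by 0.99 and 0.95. Their level flight values lie below 2.99, the median of the probe sets tested, so a signal over background was not shown for them.

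Lists for stimuli close to the flight profile had no call against level flight, beside 1.14% of all probe sets called. At that share, 0 calls in lists of 6 or fewer measured genes sets none of them apart. None of 6 measured touch genes passed (median 0.03), with values from -0.61 for CML38 to 0.27 for EXO. None of 6 cold genes passed (median 0.07; -0.47 for AT4G33980 to 0.50 for KIN1), none of 4 gravitropism genes (median 0.11), none of 4 auxin response genes (median 0.11), and neither GI of the clock list (0.04) nor AT5G13200 of the abscisic acid list. With a variance trend, among the brighter probe sets or after cyclic loess, 1 cold gene was called lower. Touch genes did differ from earlier tubes: against parabola 1 start 2 of the 6 were higher at parabola 1 end, CML37 (0.73, limma adjusted p = 0.0165) and AT1G76640 (1.41, limma adjusted p = 0.0226). Against midpoint tube A 2 were higher, the zinc finger gene STZ (0.97, limma adjusted p = 0.00352) and CML37 (0.55, limma adjusted p = 0.043). The list's medians in these comparisons were 0.62 and 0.51, beside 0.429% and 1.39% of all probe sets called higher. Most loci of these lists were not measured on a probe set with a single annotated gene. These counts therefore say little of the pathways as a whole.

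The tissue label was checked on 23 root and 26 shoot marker loci. Of the root markers only the root hair expansins EXPA7 (3.94 ± 0.29 at parabola 1 end, 3.83 ± 0.05 in level flight) and EXPA18 (3.41 ± 0.51 and 3.23 ± 0.10; SD, n = 3 each) were measured. Of the 5 measured shoot markers none passed, and their summed linear signal ran from 57.1 to 75.3 at parabola 1 end, against 48.9 to 60.8 in level flight. The largest shoot marker difference was that of PORB, a chlorophyll synthesis enzyme, at 0.82 (limma adjusted p = 0.122). The 63 plastid-encoded genes had values below 0 in 62 cases and a median of -0.24, with none passing. Their median level was 9.55, 9.70 and 9.19 in the 3 parabola 1 end arrays, against 9.48, 9.74 and 10.1 in the 3 level flight arrays, so the groups overlapped. The median difference was -0.07 without parabola 1 end replicate 3 and -0.09 without level flight replicate 3. Parabola 1 end had the lowest mean of the 7 tubes in 55 of the 63 plastid-encoded genes, beside 10.7% of all probe sets. Against midpoint tube A, 8 of them were called lower and 0 higher, beside 1.08% of all probe sets called lower. The part of these transcripts in the results above was not tested.

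**Figure D3:**
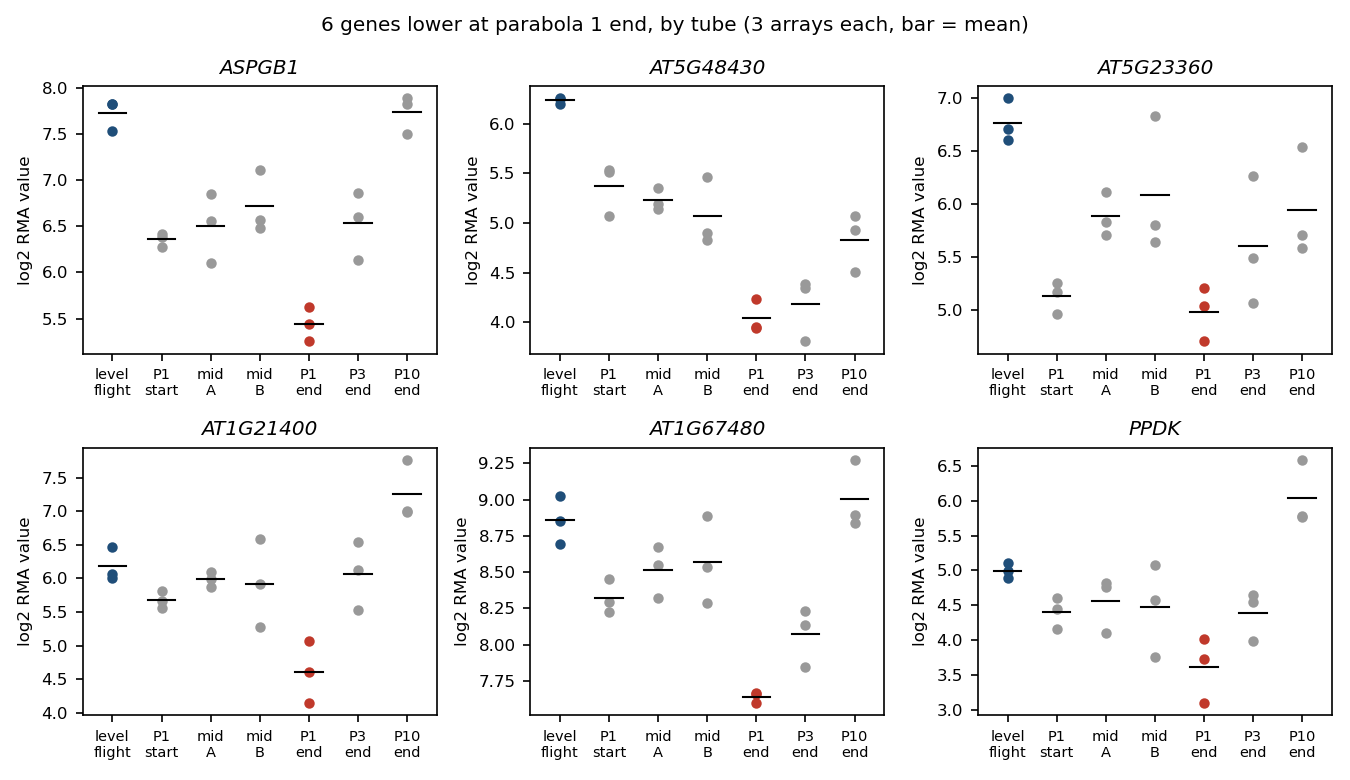
Log2 RMA values (y axis) of 6 genes in the 3 arrays of each tube, with the tubes in flight order on the x axis (P, parabola; mid, midpoint of parabola 1) and a bar at each mean. In ASPGB1, AT1G21400 and AT1G67480 the 3 parabola 1 end arrays (red) are the lowest of all 21, and in AT1G21400 and PPDK the parabola 10 end arrays lie above level flight (blue).

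Parabola 1 end was then set against each of the other 5 tubes in the same fit, since a low value against level flight alone does not show what sets this tube apart. Against parabola 3 end, no probe set passed limma's test (0% called), with 1202 at an unadjusted p below 0.05. That threshold was met by 2319 against level flight, and some probe sets meet it without any difference. Against parabola 1 start 116 passed (0.664%), 75 of them higher (0.429%) and 41 lower (0.235%) at parabola 1 end. Against midpoint tube A 431 passed (2.47%), 243 higher (1.39%) and 188 lower (1.08%). Against midpoint tube B 23 passed (0.132%), 6 higher (0.0343%) and 17 lower (0.0972%). Against parabola 10 end 407 passed (2.33%), 178 higher (1.02%) and 229 lower (1.31%). Midpoint tubes A and B, fixed at the same moment, differed from each other at 245 probe sets (1.4%; 51 or 0.292% higher and 194 or 1.11% lower in A), more than the 200 that separate parabola 1 end from level flight. These comparisons share the parabola 1 end arrays, so their counts are not independent of each other.

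Leaving aside parabola 3 end, against which nothing passed, a condition chosen after the values were seen, 7 genes were lower at parabola 1 end than in level flight and in each of the other 4 tubes. They were ASPGB1, AT5G48430, AT1G67480, AT2G20670, ALDH6B2, the sugar transporter family gene AT3G05150 and AT1G18270, of an aldolase family. AT1G18270 averaged 7.35 at parabola 1 end, against 8.25 at parabola 1 start, 8.32 and 8.09 in midpoint tubes A and B, 7.85 at parabola 3 end, 8.74 at parabola 10 end and 8.26 in level flight. AT3G05150 averaged 5.94 at parabola 1 end, against 6.91 to 6.94 in the 3 earlier parabola tubes, 6.36 at parabola 3 end, 7.46 at parabola 10 end and 6.97 in level flight. Tests of these other tubes against level flight are not reported here.

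ASPGB1 averaged 5.44 ± 0.19 at parabola 1 end, against 6.36 to 6.72 in the other tubes of parabola 1, 6.53 at parabola 3 end, 7.74 at parabola 10 end and 7.73 ± 0.17 in level flight (SD, n = 3 each). Its difference from parabola 3 end was -1.09, from which the test gave a limma adjusted p of 0.0963. AT5G48430 averaged 4.04 at parabola 1 end, against 4.18 at parabola 3 end, 4.83 at parabola 10 end and 6.24 in level flight. Its difference from parabola 3 end was -0.14 (limma adjusted p = 0.92).

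The 4 branched-chain genes that passed against level flight were also lower than at parabola 10 end. AT4G20930 passed there too (-0.63, limma adjusted p = 0.0191), while ETFALPHA and AT4G16800 gave -0.0002 and 0.14. The 4 were chosen by low values in the same parabola 1 end arrays, so their second pass is no independent support. AT1G21400 averaged 4.61 at parabola 1 end, against 7.25 at parabola 10 end and 6.18 in level flight, and PPDK, which is not on that list, averaged 3.62, against 6.04 and 5.00. Both differences from parabola 10 end passed (-2.65 and -2.42, limma adjusted p = 2.79e-05 and 5.89e-05). Of the 9 branched-chain genes 5 were lower at parabola 1 end than at parabola 10 end and none higher, and of the 8 sugar starvation genes 6 were lower and none higher. The medians were -0.63 and -0.82, beside 0.04 over all probe sets, of which 1.31% were called lower.

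WRKY29 and UGT76B1 had other courses. WRKY29 averaged 6.86 at parabola 1 end, against 6.89 at parabola 1 start, 6.72 and 7.30 in midpoint tubes A and B, 6.87 at parabola 3 end, 6.82 at parabola 10 end and 7.93 in level flight. UGT76B1 averaged 7.07 at parabola 1 end, against 7.26 at parabola 1 start, 7.08 and 8.13 in midpoint tubes A and B, 7.33 at parabola 3 end, 8.19 at parabola 10 end and 8.35 in level flight. UGT76B1, UGT73D1, WRKY22 and PUB22 also differed between midpoint tubes A and B (-1.05, -1.13, -1.32 and -0.82 for A minus B, limma adjusted p = 0.00216, 0.00679, 0.00181 and 0.00753), so tubes of the same stage differed in these genes by about as much as parabola 1 end and level flight. ASPGB1, AT1G21400, AT1G67480, MCCB and ALDH6B2 had tube A minus tube B values of -0.22, 0.06, -0.05, 0.11 and 0.08, none of which passed.

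**Figure D4:**
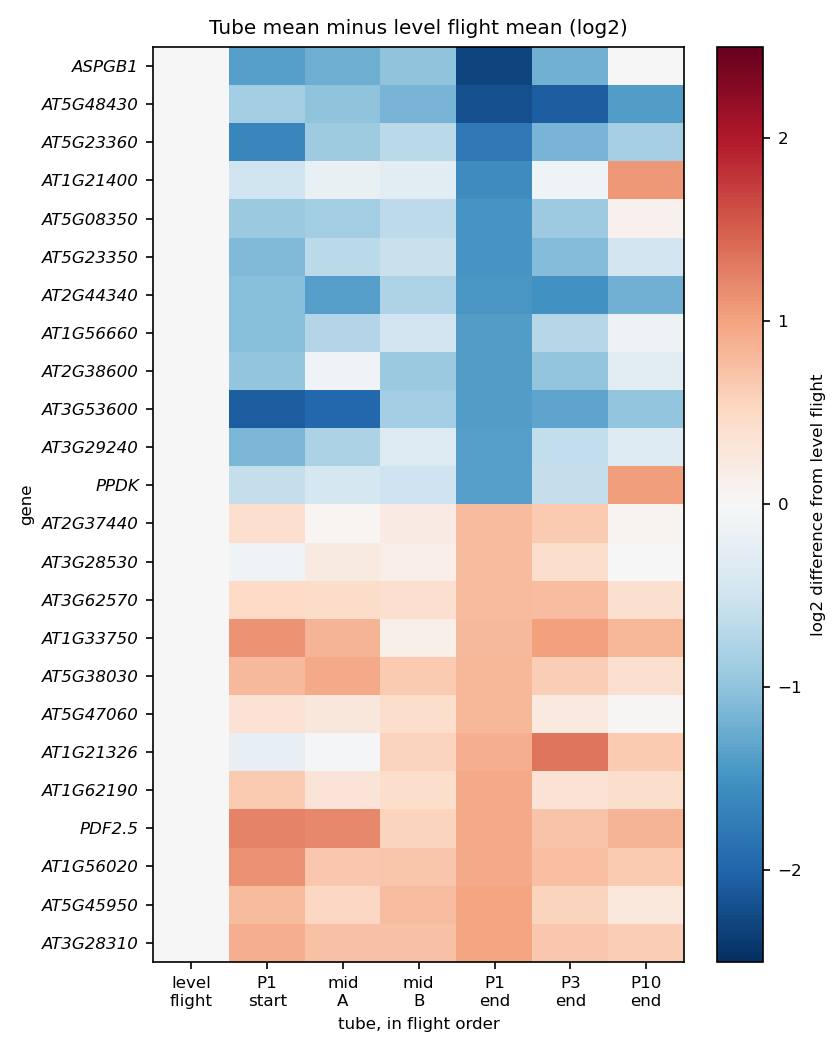
Colour gives the log2 difference of each tube's mean from the level flight mean, for the 12 largest falls and the 12 largest rises at parabola 1 end (rows) in the 7 tubes in flight order (columns). The level flight column is 0 by construction; ASPGB1 reads -2.29 at parabola 1 end and is near 0 at parabola 10 end, where AT1G21400 and PPDK lie above level flight.

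The count of 200 depended on single arrays. It was 69 without level flight replicate 3, 111 without level flight replicate 2, 124 without level flight replicate 1, 111 without parabola 1 end replicate 3, 122 without parabola 1 end replicate 2 and 172 without parabola 1 end replicate 1. With the tube as a random block, at a correlation of 0.184 taken from midpoint tubes A and B, 9 probe sets passed, all lower. They were those of ASPGB1, AT5G48430, AT1G67480, AT1G52200, AT2G20670, AT3G29240, AT5G12340 and UGT76B1 and a probe set with several annotated genes. These 8 genes also passed in every other setting tried, array left out or not. The correlation is 1 average over all probe sets from 1 pair of tubes. Passing with it therefore does not show that a given gene is free of tube differences. UGT76B1, 1 of the 8, differed by -1.05 between midpoint tubes A and B (limma adjusted p = 0.00216).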

How the data were processed

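Affymetrix AraGene arrays were hybridised with material made from 100 ng of root RNA. The authors deposited log2 expression values from RMA, per the submitters' processing notes; RMA's background correction, quantile normalization and summary would hide a shift of all transcripts at once. The notes name RMA, oligo, limma, R 4.0.0 and TAIR10. They covered 38408 probe sets and 21 arrays. The platform annotation named 17481 (16722 with 1 gene, 759 with several), and 16574 matched RefSeq (TAIR10.1) for symbols. No coordinates or sequences are given.

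All 17481 were tested with limma 3.58.1 (lmFit, eBayes, two-sided) in R 4.3.3 (tables read with data.table, version 1.17.8), as 7 group means over 21 arrays, with Benjamini-Hochberg adjustment per comparison and no filter on brightness. The fit was tested on simulated data with independent noise in each array and no tube effect. That test therefore does not cover differences between tubes. The number of arrays limits the precision. For genes on more than 1 probe set, the brightest stands for the gene.

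The comparison, lists and families were chosen with earlier results of these data known, so lists are described by counts and medians. Families are shared symbol prefixes, a rule revised, like the GRAM list, after the annotation or values had been seen. Named genes are the 12 largest rises and 12 largest falls that passed without overlap, passing list members, all GRAM and branched-chain genes, genes passing with the tube block, and up to 3 passing members per family. Alternatives were a variance trend, a brightness filter, 6 arrays, a replicate block, array weights, a tube block, cyclic loess, all probe sets and leaving out each array.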

Additional observations from a re-analysis of the deposited data

Results flagged for a closer look

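Of the genes named above that passed against level flight, 25 also differed between parabola 1 end and parabola 10 end by limma's test of that difference. Over all 17481 probe sets tested, 407 passed in that comparison (2.33%). The genes were first chosen by their difference from level flight, which rests on the same parabola 1 end arrays. That choice favours a difference from parabola 10 end, so the 25 are no independent result. Values are parabola 1 end minus parabola 10 end on the log2 scale. Lower at parabola 1 end were ASPGB1 by -2.30, AT1G21400 by -2.65, PPDK by -2.42, MCCB by -1.57, ETFQO by -1.31, ALDH6B2 by -1.16, AT1G67480 by -1.36, AT5G38710 by -0.86, ATG8E by -0.70 and ATG8H by -0.58. The GRAM domain genes AT5G08350 and AT5G23350 gave -1.57 and -0.99. The glycosyltransferase genes UGT76B1 and UGT73B1 gave -1.11 and -0.67. AT2G20670 gave -1.39, AT1G56660 -1.27, TRM24 -1.15, AT2G38600 -1.13, AT3G29240 -1.07, BGLU45 -0.81, AT5G48430 -0.79 and AT5G12340 -0.66. Higher at parabola 1 end than at parabola 10 end were AT5G47060 (0.81), AT3G28530 (0.80) and AT2G37440 (0.72). Adjusted p-values ran from 2.36e-06 for ASPGB1 to 0.0483 for AT5G23350. Each stage had a single tube, so stage and tube cannot be told apart.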

How the results depend on the processing

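Counts of probe sets passing at an adjusted p of 0.05 are given for parabola 1 end against the tube named. Against level flight 200 passed, with 308 among probe sets above the median brightness, 76 with only the 6 arrays, 9 with the tube as a random block and 69 to 172 without each array in turn. Against parabola 1 start 116 passed, with 211 under a variance trend, 237 above the median brightness, 7 with the tube block, 176 over all probe sets and 30 to 223 without each array. Against midpoint tube A 431 passed, with 77 from 6 arrays, 22 with the tube block, 673 over all probe sets and 181 to 448 without each array. Against midpoint tube B 23 passed, with 0 from 6 arrays, 15 with array weights, 0 with the tube block, 12 over all probe sets and 1 to 89 without each array. Against parabola 3 end the count was 0, and 0 to 3 without each array. Against parabola 10 end 407 passed, with 156 from 6 arrays, 61 with the tube block, 712 over all probe sets and 157 to 397 without each array. With fewer arrays or more probe sets the tests have a different size by construction; for the others the cause was not tested. With the replicate number as a replicate block, 170 passed against level flight and 13 against midpoint tube B; same-numbered arrays of parabola 1 end and level flight did not deviate together, so the numbers are not taken as pairs. The WRKY median ran from -0.33 to -0.0074 without each array. Of genes that did not pass, some changed sign: ETFALPHA ran from -0.19 to 0.0796 (0.0619 without parabola 1 end replicate 3), AT4G20930 from -0.21 to 0.11 (0.0053 without level flight replicate 3), GEM from -0.14 to 0.0812 (0.0517 without level flight replicate 2), AT5G13200 from -0.0956 to 0.0408 (0.0324 without level flight replicate 3) and AT2G26800 from -0.0644 to 0.0544, with 0.0165 under array weights. Of the 45 named genes that passed, 8 passed in all 14 settings. The cause of these changes was not tested, and 3 arrays per group limit the precision.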

Other observations

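Further genes were named after their values were seen. AAH, the allantoate amidohydrolase that releases nitrogen from purine breakdown products, had 5.15, 5.63 and 5.22 at parabola 1 end, against 6.44, 6.33 and 6.42 in level flight, and fell by 1.06 on the log2 scale (SE 0.16, limma adjusted p = 0.00158). AT1G80380, a glycerate kinase of photorespiration, fell by 1.17 and TMT1, which loads sugars into the vacuole, by 0.67 (limma adjusted p = 0.00331 and 0.00966). All 3 were also lower than at parabola 10 end. AAH averaged 5.34 at parabola 1 end, against 6.37 at parabola 10 end, AT1G80380 7.39 against 8.77, and TMT1 8.08 against 8.95.

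Of 191 passing genes placed in RefSeq order, 8 pairs lay within 3 genes of each other, and the members of each pair had the same direction. Among them were AT2G38240 and AT2G38250, AT1G30700 and AT1G30720, UGT73B2 and UGT73B1, AT5G23350 and AT5G23360 (all lower) and AT3G28310 and AT3G28320 (higher). AT5G38010 paired with both AT5G37980 and AT5G38030 (all higher), so the pairs are not all separate. Of the 192 passing probe sets with 1 gene 147 were lower, so many pairs would share a direction anyway. How many such pairs to expect among 191 genes was not tested. Neighbours of this kind are often related copies, and shared probes were not tested.

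Of the 151 probe sets lower at parabola 1 end, level flight had the highest mean of the 7 tubes in 111 and parabola 1 end the lowest in 77, beside 14.3% and 10.7% of all probe sets tested; the choice of probe sets by this difference raises both counts.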
